A study of Mus musculus with 12 samples.

Results

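The genes described here encode the machinery that docks, primes and fuses secretory vesicles. They were chosen by name among the protein-coding genes of the deposited table, as the synaptotagmins (Syt), synaptotagmin-like proteins (Sytl), syntaxins (Stx), VAMPs and complexins (Cplx), the SNAP proteins Snap23, Snap25 and Snap29, the Stxbp genes, Rab3a to Rab3d, Rab27a and Rab27b, Rims1, Rims2, Unc13a, Unc13b, Unc13d, Rph3al, Nsf and Napa. By this rule 72 of 22711 gene symbols were members. The rule uses names and no measured value, but members and gene lists were chosen with earlier results of these data known. Every library came from mice carrying RIP-rtTA; TetO-VEGF-A. A rat insulin promoter expresses the doxycycline-dependent transactivator in beta cells, and doxycycline (Dox) switches on VEGF-A in them, so the controls carry both transgenes too. Macrophages (3 libraries) were sorted on CD11b, and Endothelial cells (3 libraries) on CD31, both out of dispersed islets of mice given Dox for 1 week. Dox islets (3 libraries) were intact islets after the same 1 week, and No Dox islets (3 libraries) were intact islets of mice that got no Dox. The labels used here state neither the age of the mice nor which animals made up a library. Every p-value therefore speaks of the scatter among these libraries, which may be technical.

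Regulated exocytosis rests on SNARE proteins. A VAMP on the vesicle pairs with a syntaxin and a SNAP protein on the target membrane, and the zippering of the complex drives fusion. Stxbp proteins of the Munc18 type hold and guide syntaxins, Unc13 and RIM proteins prime vesicles, complexins clamp and release the assembled complex, and synaptotagmins couple fusion to calcium. Rab3 and Rab27 and their effectors bring granules to the membrane, and Nsf with its adaptor Napa takes used complexes apart. Beta cells release insulin through the neuronal form of this machinery, while leukocytes and endothelium use related members for granule and membrane traffic.

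Expression is given in the normalized signal that the authors deposited, on a linear scale with a floor of 1. Libraries summed to between 17635776 and 25226447 signal units. The depth in reads is unknown, and values carry no counting interval. Macrophage markers made up 1.22 to 1.28% of the summed signal in Macrophages and 0.000755 to 0.00242% in Endothelial cells. Endothelial markers made up 0.00662 to 0.00926% in Macrophages and 1.03 to 1.09% in Endothelial cells. Beta cell markers made up 0.837 to 0.896% in Dox islets and 1.85 to 3.00% in No Dox islets. Dox islets replicate 1 and No Dox islets replicate 2 stood apart from the other islet libraries, because their deviations from the group mean rose with the GC content of genes (Spearman's rho across genes 0.57 and 0.63, against -0.45 to -0.32 in the other 4). Counts of calls and the main member values in islets are therefore also given without them. Replicate 1 of each sorted fraction deviated with GC content too, less strongly (rho 0.24 in Macrophages and 0.32 in Endothelial cells). The other libraries of the fractions had rho of -0.22 to -0.04. Acinar markers, of exocrine tissue around islets, made up 1.59% in Macrophages replicate 2 and 0.463% in Endothelial cells replicate 2, against 0.00592 to 0.113% and 0.0012 to 0.0227% in the other libraries of those groups. Their part in the member differences was not tested. Without Macrophages replicate 2, 39 members differed between Macrophages and Endothelial cells, and without Endothelial cells replicate 2, 31 did, against 40 with both.

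The exocytosis genes differed in where they were most abundant. Of the 72 members, 35 had their highest mean in No Dox islets, 19 in Macrophages, 11 in Endothelial cells and 7 in Dox islets. In 13 of the 35 the No Dox libraries lay wholly above the next group, namely Syt7, Syt9, Syt13, Syt14, Sytl4, Rab27a, Rims2, Rph3al, Unc13a, Unc13b, Stxbp6, Vamp2 and Cplx2. The macrophage libraries lay wholly above the next group in 8 members, namely Sytl3, Stx8, Stx11, Stx16, Stxbp2, Stxbp3a, Cplx3 and Unc13d. The endothelial libraries did so in 5, namely Vamp5, Sytl1, Syt15, Stx2 and Stx5a, and Dox islets in 0 of 7. The next group is the one with the second highest mean, and libraries of other groups could still be higher. Stx5a was at 4142 in No Dox islets replicate 2 and 3258 in Dox islets replicate 1, above every endothelial library. Stx8 was at 2020 in No Dox islets replicate 1, above the lowest macrophage library (1661). Among the 69 members with a signal of 15.5 or more in at least 3 of the 12 libraries, 35 were highest in No Dox islets, 17 in Macrophages, 11 in Endothelial cells and 6 in Dox islets (50.7, 24.6, 15.9 and 8.70%). Of all 15105 genes past that filter, 28.4, 31.3, 25.6 and 14.7% were. Groups wholly above the next held 18.8, 11.6, 7.25 and 0% of these members in the same order, against 7.49, 18.1, 10.7 and 2.16% of all genes. Nsf, the ATPase that recycles all SNARE complexes, was nearly level, at 2660.4, 2859 and 2527 in Macrophages, 2689, 2893 and 2593 in Endothelial cells, 2096, 2226 and 2359 in Dox islets, and 2753, 2371 and 2456 in No Dox islets.

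**Figure D1:**
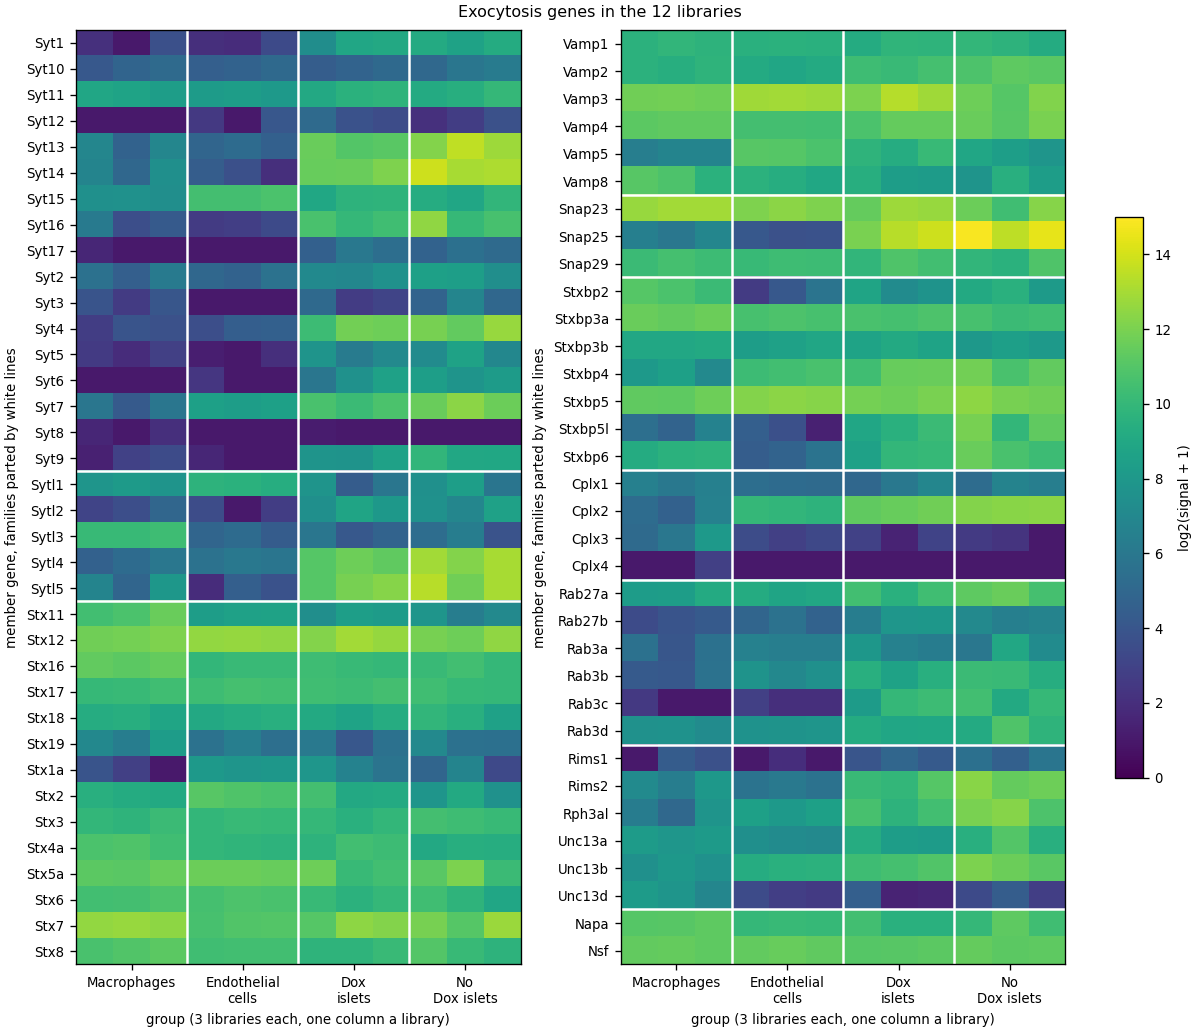
Heat map of log2(signal + 1) for 70 exocytosis genes (rows, grouped by family) in the 12 libraries (columns, 3 per group). Snap25, Syt13, Syt14, Sytl4 and Sytl5 are bright in both islet groups and dark in both sorted fractions, while Stxbp2, Sytl3 and Unc13d are brighter in the 3 macrophage columns than elsewhere.

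Promoter sequence is shown for 4 members that carry the comparisons below: Syt14 and Sytl4, which fell in Dox islets, Stxbp2, the member with the largest excess in Macrophages over Endothelial cells, and Vamp5, among the largest the other way. Each line gives the 250 bases before the gene start from RefSeq (build GRCm38.p6, not the build of the deposited table), 5′ to 3′ on the gene's strand. Of the 72 members 54 matched the promoter table. Capitals mark exact matches, on either strand, to a GC box (GGGCGG), an E-box (CACGTG), a CRE core (TGACG) or a PU.1 core (GAGGAA), and neighbouring GC boxes may overlap.
Syt14, chr1:193035776-193036025, minus strand: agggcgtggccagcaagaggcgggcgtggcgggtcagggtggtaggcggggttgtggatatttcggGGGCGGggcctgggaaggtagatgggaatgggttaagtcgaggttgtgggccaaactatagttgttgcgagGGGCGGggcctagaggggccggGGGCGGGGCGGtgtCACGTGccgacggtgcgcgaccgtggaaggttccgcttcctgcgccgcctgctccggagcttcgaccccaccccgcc
Sytl4, chrX:133981813-133982062, minus strand: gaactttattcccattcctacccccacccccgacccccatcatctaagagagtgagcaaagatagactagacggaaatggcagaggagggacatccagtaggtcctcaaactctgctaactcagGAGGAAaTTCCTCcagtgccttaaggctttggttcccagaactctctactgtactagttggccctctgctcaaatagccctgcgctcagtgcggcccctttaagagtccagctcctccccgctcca
Stxbp2, chr8:3630859-3631108, plus strand: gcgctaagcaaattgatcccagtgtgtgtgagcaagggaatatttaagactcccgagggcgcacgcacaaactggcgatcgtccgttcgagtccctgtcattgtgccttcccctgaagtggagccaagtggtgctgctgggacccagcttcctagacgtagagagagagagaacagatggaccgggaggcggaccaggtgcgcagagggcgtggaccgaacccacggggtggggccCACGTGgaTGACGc
Vamp5, chr6:72380469-72380718, minus strand: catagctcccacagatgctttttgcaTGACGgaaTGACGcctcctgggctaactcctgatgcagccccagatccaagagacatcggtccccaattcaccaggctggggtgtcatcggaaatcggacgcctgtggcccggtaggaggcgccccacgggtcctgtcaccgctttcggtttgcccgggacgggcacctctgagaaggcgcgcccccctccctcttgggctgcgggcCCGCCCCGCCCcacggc
The Syt14 window was 69.2% G or C with 25 CpG dinucleotides and held 5 matches, and the Vamp5 window was 66.0% G or C with 19 CpG and held 4. The Stxbp2 window was 60.4% G or C with 17 CpG and 2 matches, and the Sytl4 window 53.2% G or C with 5 CpG and 2 matches. Over the 67 promoter windows of members the median was 60.4% G or C and 14 CpG, against 52.4% and 6 in all 32851 windows. A GC box stood in 58.2% of member windows and 32.7% of all windows, an E-box in 16.4% and 6.02%, a CRE core in 23.9% and 17.8%, and a PU.1 core in 19.4% and 23.2%. A forkhead match (TGTTTAC) stood in 2.99% and 3.17%, and a TATA box match (TATAAA) in 4.48% and 12.4%. These are matches of letters and not shown sites.

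Dox islets against No Dox islets compares the secretory machinery of whole islets with and without 1 week of Dox. Every mouse carried both transgenes, so Dox itself and the VEGF-A it induces cannot be told apart. Syt14, Syt13 and Syt7, all synaptotagmins, and the granule-docking protein Sytl4 fell, and were 2.54- to 3.05-fold lower in Dox islets. No member rose. Of 67 members tested with limma on log2(signal + 1), 0 were higher and 4 lower (5.97% called), and over all 14443 genes tested 4.33% were higher, 1.41% lower and 5.74% called in either direction. Of those 14443 genes 3000 had an unadjusted p under 0.05, against which the unadjusted counts below are to be read. The log2 difference was below 0 in 47 of the 67 members, against 43.6% of all genes tested, and its median was -0.39, against 0.11 over all genes. The groups did not overlap in 18 of the 67, against 25.4% of all genes. Differences are on the log2(signal + 1) scale, which understates those of low genes. The 5 members not tested for low signal were Cplx3, Cplx4, Syt8, Syt12 and Unc13d.

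Syt14, a synaptotagmin without the usual calcium-binding residues, had signals of 2947, 3034 and 4301 in Dox islets, against 14587, 8374 and 8951 in No Dox islets. All Dox libraries lay below all No Dox libraries, and the log2 difference was -1.61 (SE 0.33, adjusted p = 0.0259). Syt13, another synaptotagmin that does not bind calcium and is known from endocrine cells, had 3085, 2049 and 2305 in Dox islets, against 4803, 11934 and 7188 in No Dox islets (log2 difference -1.61, SE 0.37, adjusted p = 0.0375). Its groups did not overlap either. Syt7, the high-affinity calcium sensor of insulin granules, had 1639, 1198 and 1692 in Dox islets, against 3074, 5484 and 3219 in No Dox islets (log2 difference -1.34, SE 0.33, adjusted p = 0.0432). Sytl4, or granuphilin, which docks insulin granules through Rab27a, had 2110.0, 3304 and 2585 in Dox islets, against 7647, 4699 and 8354 in No Dox islets (log2 difference -1.35, SE 0.33, adjusted p = 0.0435). For both genes the highest Dox library stayed below the lowest No Dox library.

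These 4 calls rest on few libraries. Without Dox replicate 2, without Dox replicate 3, or without Dox replicate 1 and No Dox replicate 2 together, limma called 0 of 67 members, with 12, 17 and 19 at an unadjusted p under 0.05. Over all 14443 genes those fits called 5, 87 and 302, against 829 with every library, and had 2031, 2391 and 2870 genes at an unadjusted p under 0.05. Without Dox replicate 1 the calls were Syt13 and Syt14, and without No Dox replicate 1 Syt13 alone. Without No Dox replicate 2 they were Syt14 and Sytl4 with Rims2 and Stxbp5l, and without No Dox replicate 3 Syt14 with Rph3al. Syt7 lost its call whichever single library was left out (adjusted p 0.0589 to 0.211). With no filter on low signal 0 members were called, with 14 at an unadjusted p under 0.05. Of 22711 genes that fit called 97, with 3085 at an unadjusted p under 0.05. The log2 differences kept their sign throughout, between -1.78 and -1.36 for Syt14, -1.92 and -1.27 for Syt13, -1.49 and -1.08 for Syt7 and -1.61 and -1.19 for Sytl4 with 1 library left out. Without Dox replicate 1 and No Dox replicate 2 together they were -1.66, -1.43, -1.14 and -1.45 (adjusted p = 0.06, 0.0667, 0.105 and 0.0507).

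The other synaptotagmins did not pass the threshold. Syt9, a calcium sensor of insulin granules, had 217, 206 and 383 in Dox islets, against 927, 514 and 498 in No Dox islets (log2 difference -1.26, adjusted p = 0.111), and -1.27 without the 2 GC-deviating libraries. Syt4, a synaptotagmin of mature beta cells, had 1220.3, 3550.0 and 3262 in Dox islets, against 3858, 2645 and 6680.3 in No Dox islets, with overlap. Syt5 had 220.1, 73.6 and 135 in Dox islets, against 149.8, 391 and 123 in No Dox islets, and Syt11 had 522, 768 and 871, against 569, 689 and 996, both with overlap. The log2 difference of Syt11 changed sign with 1 library left out (-0.23 to 0.17). Among the 15 synaptotagmins tested 13 had a log2 difference below 0 and 3 passed. Among the 5 synaptotagmin-like genes 4 were below 0 and 1 passed. Sytl1, Sytl2 and Sytl3 had log2 differences of -1.24, 0.38 and -0.25, with overlapping groups and adjusted p of 0.52 or more.

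Priming factors had log2 differences of -1.44 to -0.92, below 0 in 5 of 5 tested, and limma called 0 of them with 4 at an unadjusted p under 0.05. Rims2, a scaffold that ties granules to calcium channels, had 1156, 995 and 2114 in Dox islets, against 5203, 2841 and 3261 in No Dox islets (log2 difference -1.44, SE 0.37, adjusted p = 0.0548). Rph3al, or Noc2, a Rab effector needed for endocrine secretion, had 1608, 846 and 1411 in Dox islets, against 4113, 4949.5 and 1814 in No Dox islets (log2 difference -1.42, SE 0.42, adjusted p = 0.0819). In both genes the groups did not overlap. Across the 14 alternatives Rims2 passed in 5 (adjusted p 0.0184 to 0.234), among them without No Dox replicate 2 (0.0401), and Rph3al in 2 (0.0148 to 0.302), among them without No Dox replicate 3 (0.0293). Unc13a, the main priming factor of insulin granules, had 623, 327 and 298 in Dox islets, against 695, 2009 and 708 in No Dox islets, and Unc13b had 1292, 1499 and 1951, against 4213, 3108 and 2287 (adjusted p = 0.145 and 0.107). With each library's trend over GC content removed, Rims2, Rph3al, Unc13a and Unc13b all passed as lower (adjusted p = 0.0184, 0.0148, 0.0202 and 0.0345), in a fit that called 10 members and 1598 of 14423 genes. Unc13b also passed in 1 fit of all 12 libraries (0.0295). Without the 2 GC-deviating libraries the 4 differed by -1.51, -1.32, -1.16 and -0.86, and 0 passed. Dox replicate 1 and No Dox replicate 2, which stood apart by GC content, held the highest Unc13a signal of their groups.

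Of the Rab GTPases 0 of 6 passed, with 1 at an unadjusted p under 0.05. That one was Rab27a, the Rab of the granule membrane, with 1402, 742 and 1361 in Dox islets, against 2463, 3102 and 1514 in No Dox islets (log2 difference -1.01, SE 0.38, adjusted p = 0.157). Its groups did not overlap. Rab3a had 244, 97.1 and 76.4 in Dox islets, against 60.5, 500.1 and 152 in No Dox islets, and Rab3d had 591, 467 and 484, against 574, 1892 and 862. In both, No Dox replicate 2 was far above the other No Dox libraries.

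The core SNAREs did not pass in either direction. Snap25, the target-membrane SNARE of insulin release, had 4127, 10805 and 14574 in Dox islets, against 30155, 11725 and 22333 in No Dox islets (log2 difference -1.20, SE 0.52, adjusted p = 0.22). The groups overlapped, because Dox replicate 3 exceeded No Dox replicate 2. Vamp2, the vesicle SNARE of insulin granules, had 1274, 1162 and 1534 in Dox islets, against 1811, 2440.1 and 2316 in No Dox islets (log2 difference -0.72, SE 0.29, adjusted p = 0.18), with no overlap. Stx1a, the neuronal syntaxin, was low in every islet library, at 235, 101 and 54.3 in Dox islets, against 28.6, 109.7 and 8.83 in No Dox islets, with overlap (adjusted p = 0.308). Without the 2 GC-deviating libraries Snap25 and Vamp2 differed by -1.05 and -0.62 (adjusted p = 0.104 and 0.349).

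Stx4a, Vamp3 and Vamp5 had differences above 0 that did not pass. Stx4a, the syntaxin of the general plasma membrane, had 837, 1407 and 1268 in Dox islets, against 535, 679.7 and 649.9 in No Dox islets (log2 difference 0.89, SE 0.33, adjusted p = 0.15). Vamp3, or cellubrevin, had 4199.7, 10172 and 7367 in Dox islets, against 3359, 2071 and 4628 in No Dox islets (log2 difference 1.10, SE 0.41, adjusted p = 0.158). Vamp5, a VAMP of muscle and endothelium, had 859, 616 and 1085 in Dox islets, against 471, 344 and 223 in No Dox islets (log2 difference 1.33, SE 0.40, adjusted p = 0.0821). Stx4a and Vamp5 did not overlap and Vamp3 did. These 3 differed by 1.18, 1.13 and 1.33 without the 2 GC-deviating libraries (adjusted p = 0.11, 0.104 and 0.205), and were the members called higher when all 12 libraries entered 1 fit, at adjusted p of 0.0324, 0.0436 and 0.0172. Snap23 had 2864, 7282 and 6562 in Dox islets, against 3186, 1356 and 4998 in No Dox islets, with overlap.

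Regulators of SNARE assembly did not pass. Cplx2, a complexin of neurons and beta cells, had 2600.1, 2911 and 3465 in Dox islets, against 4801, 5150.0 and 5405 in No Dox islets (log2 difference -0.78, SE 0.27, adjusted p = 0.128), without overlap, and -0.68 without the 2 GC-deviating libraries. Cplx1 had 31.2, 63.6 and 118 in Dox islets, against 39.0, 103 and 85.3 in No Dox islets. Stxbp6 did not overlap, at 389, 986 and 1041 in Dox islets, against 3027, 1659 and 1269 in No Dox islets (log2 difference -1.33, adjusted p = 0.128). Stxbp5l, or tomosyn-2, an inhibitor of insulin exocytosis, did overlap, at 459.8, 736 and 1181, against 3929, 978 and 2610.0 (log2 difference -1.55, adjusted p = 0.12). Stxbp2, Stxbp3a, Stx3, Stx7, Stx11 and Vamp8 had log2 differences of -1.01, 0.25, -0.51, 0.01, 0.93 and 0.12, with adjusted p of 0.309 or more.

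**Figure D2:**
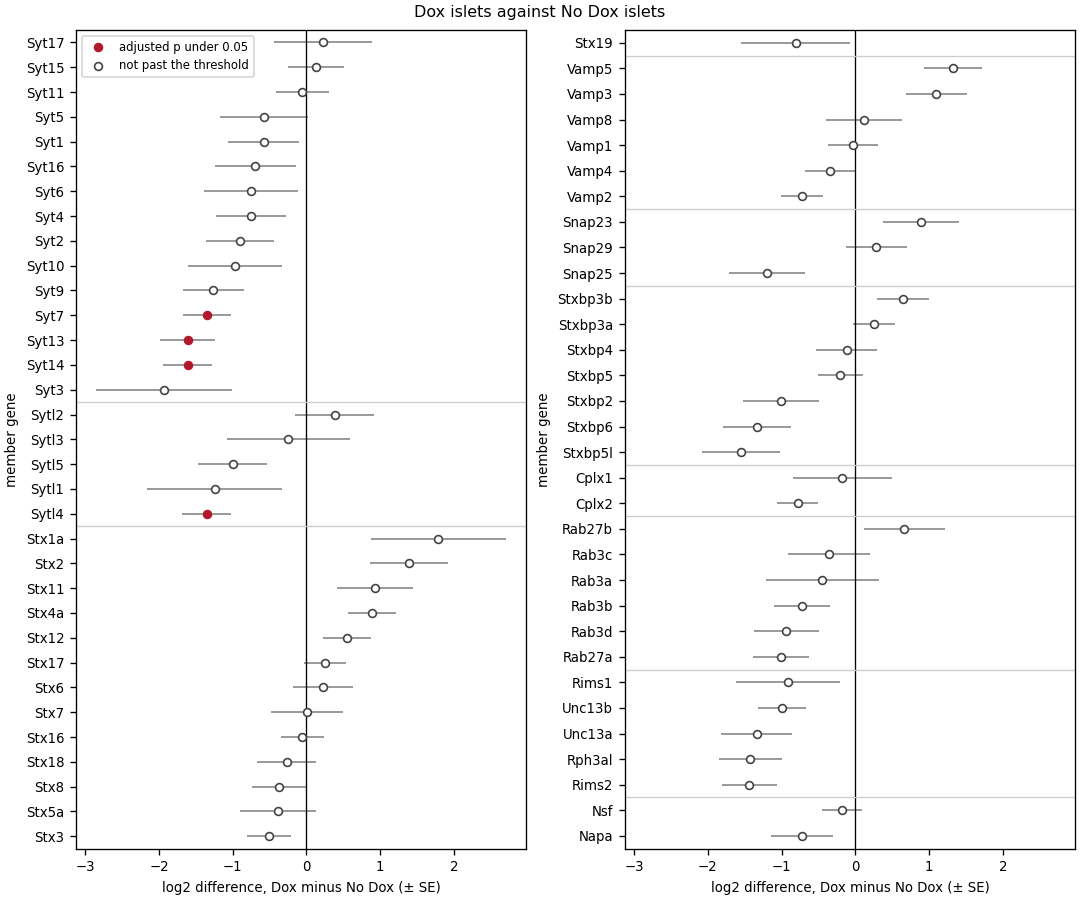
Log2 difference of Dox islets minus No Dox islets (x axis, bars are standard errors, n = 3 each) for 65 tested exocytosis genes (y axis, families parted by grey lines). Filled points mark Syt7, Syt13, Syt14 and Sytl4, the 4 with an adjusted p under 0.05, and the 5 priming genes in the right panel, from Rims1 down to Rims2, all lie left of 0.

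A pair of role lists was also counted, the islet secretory core of 19 genes and immune and vascular exocytosis of 17. They share Rab27a, Stx4a and Vamp3 and together hold 33 of the 72 members. Of the 19 genes of the islet secretory core, 0 were higher and 3 lower (Syt7, Syt13 and Sytl4), 13 had an unadjusted p under 0.05, and the median log2 difference was -0.78, against 0.11 over all genes. Of 16 tested genes of immune and vascular exocytosis 0 passed, 4 had an unadjusted p under 0.05, and the median was 0.06. Over all genes 3000 of 14443 had an unadjusted p under 0.05. The core's share of the summed signal was 0.153, 0.170 and 0.193% in Dox islets, against 0.354, 0.377 and 0.317% in No Dox islets. The immune and vascular list held 0.0900, 0.121 and 0.115% in Dox islets, against 0.0907, 0.0950 and 0.106% in No Dox islets. The first pair of groups did not overlap and the second did. With the 3 shared genes left out, the core held 0.12, 0.122 and 0.152% in Dox islets, against 0.325, 0.344 and 0.287% in No Dox islets. The other list then held 0.0575, 0.0723 and 0.0735%, against 0.0612, 0.0618 and 0.0766%. Without the 2 GC-deviating libraries 0 genes of either list passed, and the medians were -0.68 for the core and 0.13 for the immune and vascular list.

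Cell type markers moved beside these sums. Of 10 beta cell markers 0 were higher and 5 lower (Slc2a2, G6pc2, Slc30a8, Nkx6-1 and Pdx1), with a median log2 difference of -1.64. Other endocrine markers summed to 0.681 to 0.799% in Dox islets, against 1.10 to 1.99% in No Dox islets, endothelial markers to 0.353 to 0.466%, against 0.149 to 0.183%, and macrophage markers to 0.0391 to 0.0865%, against 0.0109 to 0.0313%. Markers of mural cells, the contractile cells of vessel walls, summed to 1.02 to 1.67% in Dox islets, against 0.269 to 0.568% in No Dox islets. The part of the vascular markers in the differences of Vamp5, Vamp3 and Stx4a was not tested. Set against the beta cell marker sum, the secretory core amounted to 18.2, 19.0 and 22.3% in Dox islets and 19.1, 12.6 and 10.6% in No Dox islets, with overlap. Set against beta and other endocrine markers together it amounted to 10.1, 10.1 and 12.3% in Dox islets and 12, 8.54 and 6.37% in No Dox islets. In Dox islets most of the beta cell marker sum came from Iapp, Ins1 and Ins2, and most of the other endocrine sum from Gcg. The ratios are thus mainly per hormone transcript and not per cell. In whole islets, fewer cells of a type and less RNA per cell cannot be told apart. Neuronal markers, which could accompany neuronal SNAREs, summed to 0.00948 to 0.0168% in Dox islets and 0.0217 to 0.0297% in No Dox islets, and their part in the result was not tested.

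**Figure D3:**
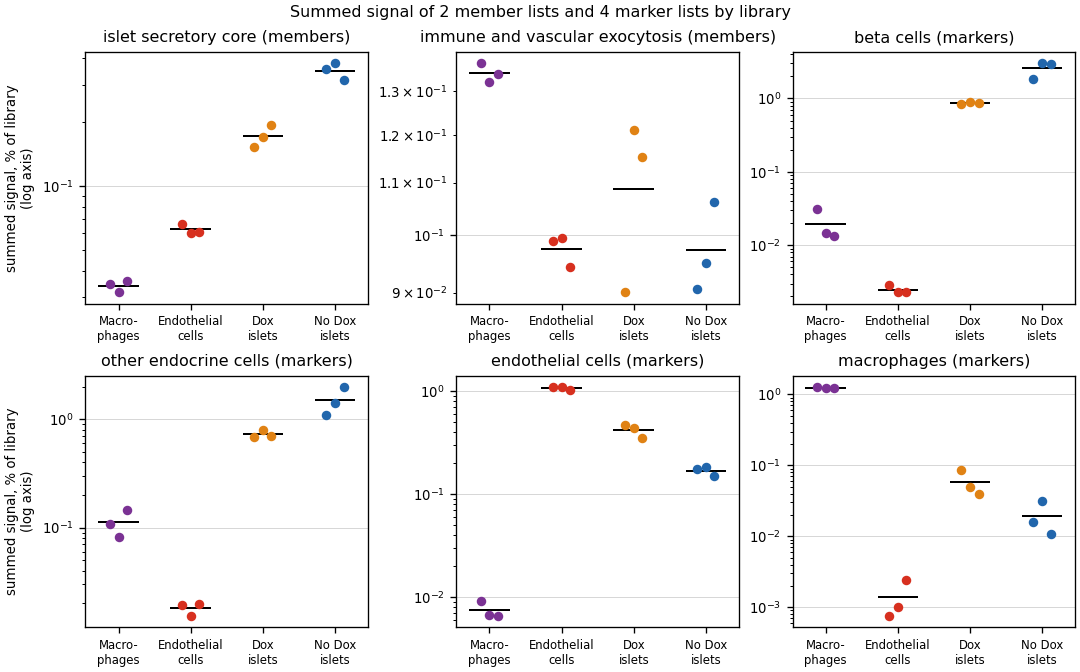
Summed signal as a percentage of the library (log axis, each panel with its own range) for the 2 exocytosis lists and 4 cell marker lists, one point per library and a bar at the mean of 3. The islet secretory core is lower in Dox than in No Dox islets, as are beta cell and other endocrine markers, while endothelial and macrophage markers are higher in Dox islets.

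Partners of the machinery outside the naming rule were counted in 4 lists, and are to be read against the 5.74% of all genes called. Of 12 tested priming and scaffold genes, 0 were higher and 2 lower (16.7% called), namely Rimbp2, which binds RIM and calcium channels (log2 difference -1.67, SE 0.32, adjusted p = 0.0196), and Erc2, an active zone scaffold (-1.87, SE 0.43, adjusted p = 0.0365). Cadps, which primes dense-core granules, averaged 4196 ± 1163 in Dox islets and 11021 ± 4048 in No Dox islets (SD, n = 3 each; adjusted p = 0.0514). Of 11 vesicle membrane genes 1 was lower and 0 higher (9.09% called), namely Syp, or synaptophysin, at 458 ± 53.3 in Dox islets and 1694 ± 736 in No Dox islets (log2 difference -1.80, SE 0.37, adjusted p = 0.0259). Of 9 exocyst genes and 12 ER and Golgi SNAREs none passed, and none had an unadjusted p under 0.05. Without the 2 GC-deviating libraries 1 of the 12 priming and scaffold genes passed, as lower, and 0 of the 11 vesicle membrane genes. That fit called 2.09% of all genes.

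Paralogs of one role were compared per length, as signal per kb of exon, given as mean ± SD with n = 3. Among SNAP proteins, Snap25 had 13 ± 4.02 per kb in Macrophages, 2.01 ± 0.359 in Endothelial cells, 1448 ± 779 in Dox islets and 3152 ± 1362 in No Dox islets. Snap23, the form of non-neuronal cells, had 1722 ± 155 in Macrophages, 1098 ± 148 in Endothelial cells, 1297 ± 552 in Dox islets and 741 ± 424 in No Dox islets. Snap25 was thus far below Snap23 in both sorted fractions, about level with it in Dox islets and above it on average in No Dox islets. Snap29, which serves autophagy and endosomes, stayed between 349 ± 175 in No Dox islets and 409 ± 137 per kb in Dox islets. Macrophages and Endothelial cells lay between these values, at 383 ± 47.8 and 354 ± 26.

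Among the vesicle SNAREs, Vamp3 had the highest mean per kb of the 3 compared in all 4 groups. It had 1189 ± 43.2 in Macrophages, 2612 ± 106 in Endothelial cells, 2508 ± 1034 in Dox islets and 1161 ± 443 in No Dox islets. Vamp2 had 205 ± 22.7 in Macrophages, 140.3 ± 15.6 in Endothelial cells, 347 ± 50.1 in Dox islets and 575 ± 87.4 in No Dox islets. Vamp8, the VAMP of leukocyte and exocrine granules, had 683 ± 311 in Macrophages, 282 ± 65.4 in Endothelial cells, 187 ± 90 in Dox islets and 182 ± 113 in No Dox islets. Vamp2 ran highest in islets, Vamp8 in Macrophages and Vamp3 in Endothelial cells and Dox islets, which did not differ beyond their spread.

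Among the syntaxins, Stx11, a syntaxin of cytotoxic and myeloid cells, had 852 ± 349 per kb in Macrophages, 153 ± 16.6 in Endothelial cells, 113 ± 37 in Dox islets and 61.9 ± 31.2 in No Dox islets. Stx4a had 699.6 ± 119, 380.5 ± 29.1, 495 ± 126 and 263 ± 32.4 in the same 4 groups. Stx1a had 2.60 ± 2.40, 94.2 ± 10.5, 48.7 ± 35.1 and 18.4 ± 20. The islet means of Stx1a had spreads close to their size, so their order was not resolved.

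Among the Munc18 proteins, Stxbp2, the partner of syntaxin-11, had 402 ± 106 per kb in Macrophages, 5.99 ± 6.02 in Endothelial cells, 63.9 ± 36.7 in Dox islets and 124 ± 53.2 in No Dox islets. Stxbp3a had 548 ± 41.5 in Macrophages, 309.8 ± 19.8 in Endothelial cells, 309 ± 23.8 in Dox islets and 261 ± 40.3 in No Dox islets. It shares 18.7% of its 50-base stretches with Stxbp3b, so reads could be split between them. Among the Unc13 proteins, Unc13d, or Munc13-4, had 45 ± 19.2 per kb in Macrophages and 1.48 ± 0.574 in Endothelial cells, 1.83 ± 2.48 in Dox islets and 2.50 ± 1.59 in No Dox islets. Unc13b had 15.4 ± 2.69, 52.7 ± 6.17, 117 ± 24.9 and 237 ± 71.6 in the same groups, and Unc13a had 32 ± 3.84, 17.9 ± 2.29, 48.6 ± 21 and 133 ± 88.1.

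**Figure D4:**
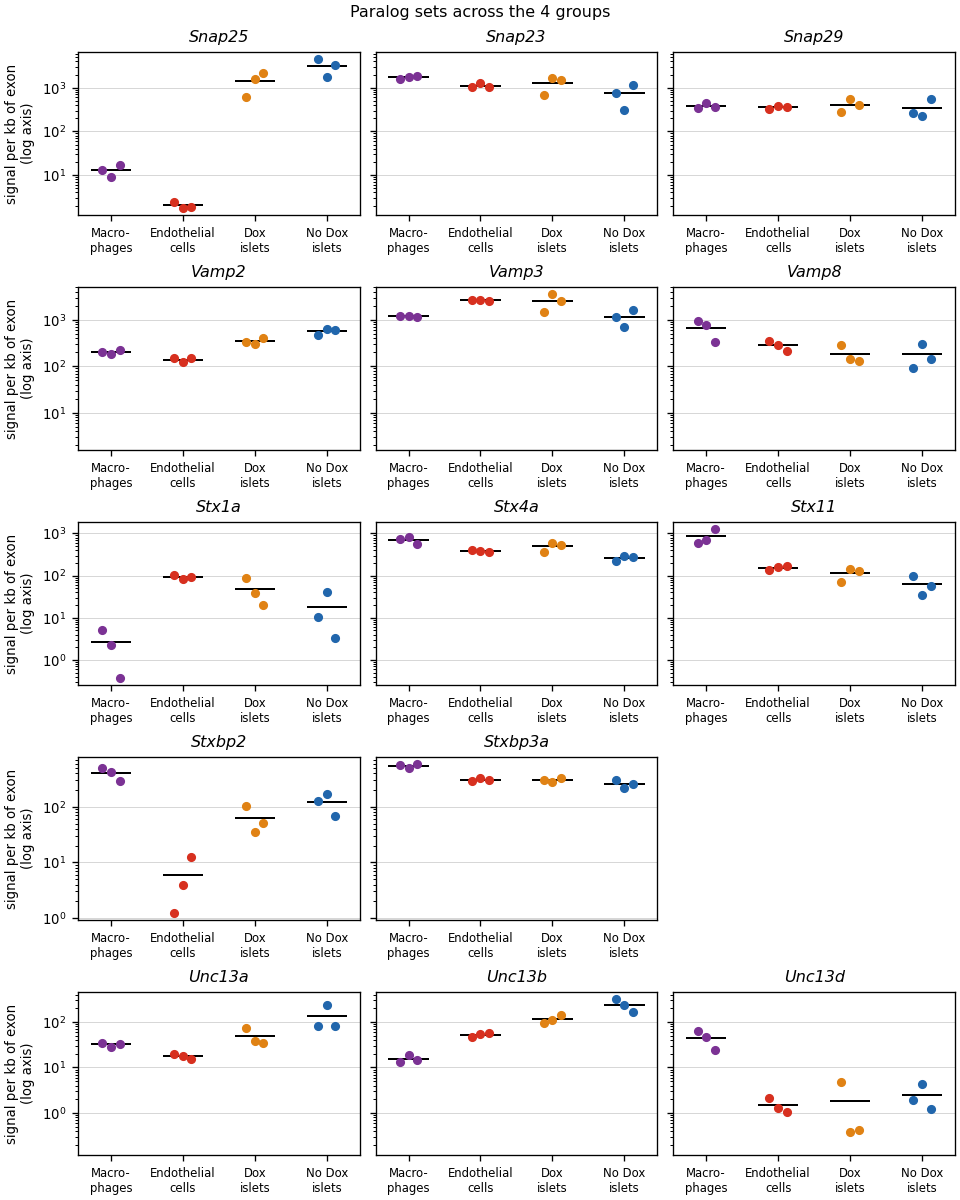
Signal per kb of exon (log axis, shared within a row) for 14 paralogs in 5 sets in the 4 groups, one point per library and a bar at the mean of 3. Snap25 spans from 2.01 in Endothelial cells to 3152 in No Dox islets, whereas Snap29 varies little, and Stx11, Stxbp2 and Unc13d are highest in Macrophages.

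Macrophages against Endothelial cells sets the 2 sorted cell types side by side. Stxbp2, Unc13d and Stx11, known from leukocyte degranulation, and the Rab27 effector Sytl3 were 5.31- to 90.7-fold higher in Macrophages. Vamp5, Cplx2, Syt15 and Stx1a were 8.51- to 42.3-fold lower in Macrophages. Of 57 members tested 23 were higher and 17 lower (70.2% called), and over all 13726 genes tested 27.7% were higher, 31.5% lower and 59.1% called. The median log2 difference of members was 0.17, against -0.10 over all genes. Of 16 tested genes of the immune and vascular list 9 were higher, 3 lower (Vamp3, Vamp5 and Sytl1) and 4 not called, Rab27a among them at -0.38. Same-numbered libraries of these 2 groups varied together, and with the replicate number as a block 22 members were higher and 16 lower. The block ended 2 calls, Rab27b (adjusted p = 0.0456 without and 0.0634 with the block) and Stxbp5l (0.0394 without and 0.0512 with it). Rab27b also lost its call without Macrophages replicate 1 or 2 or any endothelial library (adjusted p 0.0583 to 0.179), and Stxbp5l without Macrophages replicate 1 or 3 or Endothelial cells replicate 2 or 3 (0.0687 to 0.0957).

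Stxbp2 had 2072, 1745 and 1196 in Macrophages, against 5.12, 16.5 and 53.0 in Endothelial cells (log2 difference 6.50, SE 0.71, adjusted p = 9.13e-05). Unc13d, the priming factor of cytotoxic granules, had 294, 223 and 116 in Macrophages, against 9.98, 5.96 and 4.88 in Endothelial cells (log2 difference 4.69, SE 0.48, adjusted p = 6.26e-05). Stx11 had 1418, 1715 and 2992 in Macrophages, against 321, 381 and 396 in Endothelial cells (log2 difference 2.41, SE 0.27, adjusted p = 0.000104). In all 3 genes every macrophage library exceeded every endothelial library. Sytl3 had 1119, 1085 and 1272 in Macrophages, against 28.7, 37.6 and 19.8 in Endothelial cells (log2 difference 5.33, SE 0.30, adjusted p = 1.72e-06). Of its 50-base stretches 39.4% are shared with Gm2792 and 25.5% with Gm2833, so its reads may be split among them. Stxbp6, or amisyn, which competes with VAMP for syntaxin and SNAP, had 591, 769 and 842 in Macrophages, against 20.5, 26.9 and 51.0 in Endothelial cells (log2 difference 4.53, SE 0.38, adjusted p = 1.89e-05).

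Other members higher in Macrophages differed by less. Stx7, a syntaxin of late endosomes and lysosomes, had 6086, 6516 and 5695 in Macrophages, against 1599, 1958 and 2038 in Endothelial cells (log2 difference 1.71, SE 0.12, adjusted p = 6.63e-06). Stx16 of the trans-Golgi had 2705, 2434 and 2833, against 981, 1141 and 1135, and Napa had 2095, 2185 and 2513, against 1000.3, 1118 and 1070.1. These sets did not overlap. Stx4a, Stxbp3a, Snap23 and Vamp2 were also higher, by 0.87, 0.82, 0.65 and 0.54 on the log2 scale. Snap23 lost its call in 1 fit of all 12 libraries (adjusted p = 0.239), as did Vamp2 without Macrophages replicate 1 or Endothelial cells replicate 2 (0.0572 and 0.0856). Vamp8 had 2169, 1786 and 777 in Macrophages, against 800.3, 656 and 498 in Endothelial cells (adjusted p = 0.0262). It overlapped through Macrophages replicate 3, and leaving out Macrophages replicate 1 or 2 or Endothelial cells replicate 2 or 3 raised its adjusted p to 0.065 to 0.0924.

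The largest differences below 0 included Vamp5, Syt15, Cplx2 and Stx1a. Vamp5 had 84.5, 110.0 and 109 in Macrophages, against 2163, 2080.5 and 1727 in Endothelial cells (log2 difference -4.29, SE 0.19, adjusted p = 5.43e-07). Syt15 had 181, 191 and 171 in Macrophages, against 1444, 1486 and 1729 in Endothelial cells (log2 difference -3.09, SE 0.16, adjusted p = 1.11e-06). Cplx2 had 39.3, 24.8 and 96.6 in Macrophages, against 1003, 928 and 844 in Endothelial cells (log2 difference -4.31, SE 0.46, adjusted p = 8.09e-05). None of these 3 overlapped. Stx1a had 13.7, 6.08 and 1 in Macrophages, against 282, 226 and 245 in Endothelial cells (log2 difference -5.40, SE 0.69, adjusted p = 0.000237), one macrophage library being at the floor. Syt7 had 58.1, 17.9 and 57.8, against 374, 319 and 363, without overlap. The beta cell marker sum was the higher one in Macrophages, and its part in the Syt7 difference was not tested.

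The remaining members named as lower in Macrophages were Stxbp4, Stx2, Sytl1 and Vamp3, with log2 differences of -2.58, -1.62, -1.63 and -1.14. Stx2, a syntaxin of endothelial and epithelial membranes, had 710.3, 594 and 555 in Macrophages, against 2171, 1907 and 1632 in Endothelial cells. Sytl1 had 228, 284 and 215, against 817, 779.5 and 657, with an adjusted p of 0.000149 that became 0.0981 in 1 fit of all 12 libraries. Stxbp4 had 282, 371 and 130.0, against 1262, 1425 and 1645. Vamp3 had 3489, 3523 and 3291, against 7583, 7833 and 7221. Each of the 4 was without overlap.

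Snap25, Syt14 and Sytl5 were higher in Macrophages than in Endothelial cells, at low levels in both. Snap25 had 88.2, 60.9 and 115 in Macrophages, against 16.5, 12 and 12.5 in Endothelial cells (log2 difference 2.57, SE 0.40, adjusted p = 0.00076). Syt14 had 109.7, 31.6 and 175, against 20.5, 11.7 and 3.13, and Sytl5 had 106, 29.1 and 241, against 2.75, 22.6 and 12.5. Their groups did not overlap, and Macrophages replicate 2 was the lowest macrophage library each time. Sytl5 lost its call without Macrophages replicate 1 or Endothelial cells replicate 1 (adjusted p = 0.0582 and 0.0623). Beta cell markers were also higher in Macrophages, at 0.0134 to 0.0309% of the summed signal, against 0.00227 to 0.00291% in Endothelial cells, and other endocrine markers at 0.0813 to 0.145%, against 0.0153 to 0.0196%. As a share of the mean in Dox islets, Snap25, Syt14 and Sytl5 stood at 0.897, 3.08 and 3.46% in Macrophages and at 0.139, 0.344 and 0.348% in Endothelial cells. The 10 beta cell markers stood at 0.59 to 4.93% in Macrophages and 0.0793 to 1.94% in Endothelial cells. Their part in these member differences was not tested. Stxbp6, at 91.1% of Dox islets in Macrophages, and Stx11, Stxbp2, Sytl3 and Unc13d, which exceeded the islet level, lay outside that range.

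Several calls on core genes between the fractions were lost when 1 library was left out. Rims2 had 145, 81.8 and 253 in Macrophages, against 51.8, 65.9 and 49.3 in Endothelial cells (log2 difference 1.37), and lost its call without Macrophages replicate 1 or any endothelial library (adjusted p 0.0569 to 0.0819). Unc13a was higher by 0.83 and Cplx1 by 1.07, and both lost the call without Macrophages replicate 1 or Endothelial cells replicate 2 or 3, Cplx1 also without Endothelial cells replicate 1 (0.057 to 0.0581 and 0.06 to 0.086). Rph3al had a log2 difference of -2.01 and lost its call without Macrophages replicate 1 or Endothelial cells replicate 1 or 3 (0.0622 to 0.0685). Rab3a, at -1.40, lost it without Macrophages replicate 2 or any endothelial library (0.0782 to 0.117). In the other direction, Syt13 became higher without Macrophages replicate 2 (log2 difference 1.98, adjusted p = 0.0058). Without Macrophages replicate 3, Rab27a became lower (-0.66, adjusted p = 0.0158) and Syt11 higher (0.58, adjusted p = 0.0259).

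Cplx3, a complexin of retina, had 35.3, 59.6 and 278 in Macrophages, against 10.3, 6.17 and 8.54 in Endothelial cells (log2 difference 3.21, SE 0.74, adjusted p = 0.0061). Macrophages replicate 3 alone held most of it. Markers of T, NK and B cells were also highest in Macrophages replicate 3, at 0.00787% of the summed signal, against 0.00348 and 0.00358% in the other macrophage libraries, and their part was not tested. Neutrophil markers in Macrophages summed to 0.0147 to 0.0191% and in Endothelial cells to 0.000427 to 0.000866%, and 2 of the 6 stood at the floor in all endothelial libraries. Platelet markers, of cells that also use Stx11, Stxbp2, Vamp8 and Unc13d, summed to 0.0137 to 0.0188% in Macrophages and 0.000856 to 0.0012% in Endothelial cells. Their part in the differences of those members was not tested either.

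**Figure D5:**
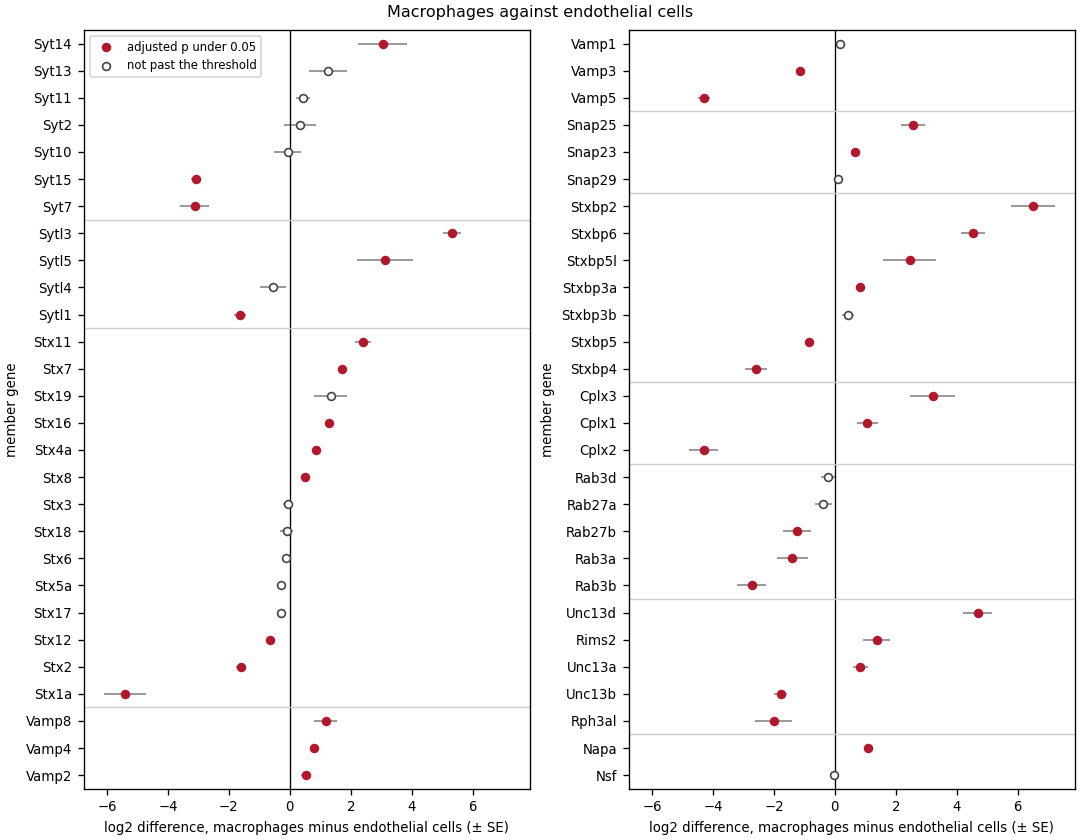
Log2 difference of Macrophages minus Endothelial cells (x axis, bars are standard errors, n = 3 each) for 56 tested exocytosis genes (y axis, families parted by grey lines). Filled points passed an adjusted p of 0.05, from Stx1a at -5.40 to Stxbp2 at 6.50.

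Both fractions were also set against whole Dox islets, which were not dispersed or sorted. Both comparisons share the Dox islet libraries, and Dox islets also served against No Dox islets, so each comparison's own values are given side by side. In Macrophages against Dox islets, of 68 members tested 12 were higher and 36 lower (70.6% called), and over all 14479 genes tested 21.3% were higher, 31.4% lower and 52.7% called. In Endothelial cells against Dox islets, of 65 members tested 5 were higher and 33 lower (58.5% called), and over all 14218 genes tested 11.5% were higher, 21.6% lower and 33.1% called. The median log2 difference of members was -0.91 and -0.73, against -0.20 and 0.00 over all genes. Without the GC-deviating Dox islets replicate 1, 14 were higher and 35 lower in Macrophages (61.1% of all genes called), and 11 higher and 37 lower in Endothelial cells (57.4% of all genes called). Of the islet secretory core 16 of 19 were lower in Macrophages and 13 of 19 in Endothelial cells, with 0 higher in either. Without Dox islets replicate 1 it was 15 of 19 in each, with 0 higher in Macrophages and 1, Stx1a, in Endothelial cells.

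Most synaptotagmins were lower in both fractions. In Macrophages 13 of 14 tested were lower than in Dox islets, with a family median of -5.15, and in Endothelial cells 12 of 14 were lower and 1 higher, with a median of -5.76. Syt4 had 5.73, 13.8 and 12.1 in Macrophages and 11.3, 21.5 and 23.7 in Endothelial cells, against 1220.3, 3550.0 and 3262 in Dox islets. The log2 differences were -7.79 (SE 0.54, adjusted p = 5.31e-06) and -6.99 (SE 0.48, adjusted p = 2.01e-05). Syt14, with the values above, differed by -5.30 (SE 0.55) in Macrophages and -8.34 (SE 0.56) in Endothelial cells, and Syt13 by -5.10 (SE 0.56) and -6.35 (SE 0.30). Syt16, a calcium-independent synaptotagmin, had 72.1, 11 and 18.1 in Macrophages and 5.12, 6.02 and 9.38 in Endothelial cells, against 1653, 1029 and 1366 in Dox islets (log2 differences -5.69 and -7.44). Each of these was far below the lowest islet library. Syt15 was lower in Macrophages but higher in Endothelial cells, at -1.96 and 1.13 (SE 0.33 and 0.25, adjusted p = 0.00083 and 0.00846). Syt10, low everywhere, was the 1 not called in either, at -0.0521 and 0.0217.

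Snap25 had the widest range of the target-membrane SNAREs, with log2 differences of -6.65 in Macrophages (SE 0.45, adjusted p = 4.81e-06) and -9.22 in Endothelial cells (SE 0.45, adjusted p = 6.34e-06). Rab3c had 4.60, 1 and 1 in Macrophages and 6.15, 3.01 and 3.13 in Endothelial cells, against 304, 1010.0 and 1264 in Dox islets. With 2 macrophage libraries at the floor, its fitted differences of -8.02 and -7.22 depend on the added 1. Sytl4 had 24.5, 36.4 and 60.2 in Macrophages and 50.2, 63.9 and 55.2 in Endothelial cells, and Sytl5, a Rab27 effector, differed by -5.21 and -8.33. Stxbp5l had 43.4, 26.5 and 101 in Macrophages and 22.1, 11.7 and 1.56 in Endothelial cells, against 459.8, 736 and 1181 in Dox islets (log2 differences -3.89 and -6.34). Cplx2 differed by -5.99 in Macrophages (SE 0.47) and -1.69 in Endothelial cells (SE 0.18), so that the endothelial fraction kept 30.9% of the Dox islet mean and Macrophages 1.79%.

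Of the 12 members higher in Macrophages than in Dox islets, 6 belong to the immune and vascular list. Sytl3, against 59.1, 16.4 and 26.9 in Dox islets, differed by 5.23 (SE 0.49, adjusted p = 2.75e-05), and Unc13d, against 22, 1.77 and 2.03, by 5.10 (SE 0.87, adjusted p = 0.000931). Stx11, against 170.4, 338 and 305, differed by 2.89 (SE 0.37, adjusted p = 0.000159), and Stxbp2, against 438, 148 and 211, by 2.76 (SE 0.41, adjusted p = 0.000411). In these 4 genes every macrophage library exceeded every Dox islet library. Cplx3 differed by 3.94, Stx19 by 1.96, Vamp8 by 1.84, Napa by 1.31, Stx16 by 1.23, Stx8 by 1.02, Stxbp3a by 0.83 and Stx6 by 0.69 on the log2 scale. Stx6 lost its call without Dox islets replicate 2 or 3 or any macrophage library (adjusted p 0.062 to 0.0818), and Stx19 without Dox islets replicate 2 or 3 or Macrophages replicate 1 or 3 (0.0804 to 0.143). Vamp8 lost its call with no filter on low signal (adjusted p = 0.0609). Sytl1 lay higher by 1.91 (adjusted p = 0.0636) and passed without Dox islets replicate 1 (log2 difference 2.80, adjusted p = 0.00371), the library in which it reached 218.

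In the same comparison 6 of 17 genes of the immune and vascular list were higher and 6 lower. The lower ones were Vamp5, Sytl2, Rab3d, Rab27a, Vamp3 and Syt11, at -3.04, -4.19, -1.49, -1.52, -0.99 and -0.83. The last pair were fragile: Vamp3 lost its call without Dox islets replicate 2 or 3 or Macrophages replicate 1 or 3 (adjusted p 0.0574 to 0.0757), and Syt11 without any of Dox islets replicates 2 and 3 and Macrophages replicates 1, 2 and 3 (0.0677 to 0.163). Vamp2 differed by -0.76 (adjusted p = 0.0172) and lost its call without Dox islets replicate 3 or Macrophages replicate 1 or 2 (0.0618 to 0.0843). Rab3a differed by -1.87 (adjusted p = 0.0409) and lost it without any single library except Macrophages replicate 3 (0.0515 to 0.137). These members therefore stood near the threshold, unlike Sytl3, Stx11 or Stxbp2, which passed in all 14 alternatives.

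Members higher in Endothelial cells than in Dox islets were 5. Sytl1, a Rab27 effector, had 817, 779.5 and 657 in Endothelial cells, against 218, 19.4 and 58.1 in Dox islets (log2 difference 3.55, SE 0.73, adjusted p = 0.00591). Vamp5 had a log2 difference of 1.25 (SE 0.24, adjusted p = 0.00379), Stx2 of 1.32 (SE 0.37, adjusted p = 0.0264) and Stx6, a syntaxin of the trans-Golgi and endosomes, of 0.80 (SE 0.19, adjusted p = 0.0119). All 5, Syt15 included, were without overlap. Stx2 lost its call when any library but Dox islets replicate 1 was left out (adjusted p 0.0522 to 0.114), and Stx6 without Endothelial cells replicate 2 (0.0729). Stx1a had 282, 226 and 245 in Endothelial cells, against 235, 101 and 54.3 in Dox islets (log2 difference 1.19, adjusted p = 0.104), and passed without Dox islets replicate 1 (1.74, adjusted p = 0.00332). Without that library Snap23, Stx4a and Cplx1 became lower and Vamp8 higher, at -0.56, -0.57, -1.18 and 1.04 (adjusted p = 0.0106, 0.0111, 0.0397 and 0.00672).

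Of the immune and vascular list 2 were higher and 6 lower in Endothelial cells than in Dox islets, with Sytl2 at -5.67 and Stxbp2 at -3.74 (SE 0.78, adjusted p = 0.00623). Stxbp2 lost its call with no filter on low signal (adjusted p = 0.0627), as did Sytl1 above (0.0644). Stx7 was lower at -1.05 (adjusted p = 0.044), and lost its call without any library but Dox islets replicate 1 (0.0878 to 0.164). Rab27a and Unc13a were lower at -1.14 and -1.36. Rab27a lost its call without Dox islets replicate 3 or Endothelial cells replicate 2 (0.0717 and 0.0638), and Unc13a without Endothelial cells replicate 2 or 3 (0.053 and 0.0548).

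Several abundant members varied less. Stx12, an endosomal syntaxin, lay between 3310 and 7663 in all 12 libraries, Stxbp5, or tomosyn, between 2490 and 5699, and Vamp4 of the trans-Golgi between 1423 and 4124. Stx17, a syntaxin of autophagosomes, lay between 1026 and 1533, and Vamp1 between 597 and 991. None of these 5 was called in Dox against No Dox islets. In Macrophages against Endothelial cells Stx12 and Stxbp5 were lower, at -0.67 and -0.84, and Vamp4 higher, at 0.80. Against Dox islets Stx12 was lower in Macrophages and Vamp4 in Endothelial cells, at -0.69 and -0.73 (adjusted p = 0.0274 and 0.032). Stx12 lost that call without Dox islets replicate 2 or 3 or Macrophages replicate 1 or 2 (0.0805 to 0.12). Vamp4 lost it without any library but Dox islets replicate 1 (0.0908 to 0.119).

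Some members were at low signal. Cplx4 was at the floor of 1 in 11 of 12 libraries, with 6.05 in Macrophages replicate 3, and Syt8 did not exceed 3.02 in any library. Syt12 had its highest value, 36, in Dox islets replicate 1, and Rims1 its highest, 55.3, in No Dox islets replicate 3. Syt6 was at the floor in all 3 macrophage libraries and 2 endothelial libraries, and had 58.7, 193 and 389 in Dox islets and 334, 215 and 298 in No Dox islets. Exons of Syt4, Syt6, Syt7, Syt12, Stx8, Stx18, Rab3b and Stx4a overlap genes on the other strand by 575, 503, 384, 950, 549, 573, 317 and 124 bases. Whether strand was used in counting is not stated, so reads of such partners cannot be told apart. Syt6 also shares 5.69% of its 50-base stretches with Atg4a, and Stx18 16.9% with Nsg1.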

How the data were processed

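RNA of 12 libraries (3 each of Macrophages, Endothelial cells, Dox islets and No Dox islets) was amplified with the NuGEN Ovation kit and sequenced on a HiSeq2500, per the labels' protocols. The authors deposited 1 table of normalized expression signal per gene. The build mm9 and the tool TopHat2 2.0 appear, without a stated role, per the submitters' processing notes, and the normalization method is not given in the sources used here. Low values lay on a fixed step in each library, but whole reads were not recovered, so no count model was run.

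Of 22793 entries, 22711 symbols remained after 25 symbols turned into dates were restored and repeated symbols were reduced to 1 entry. Each comparison was fitted over its 6 libraries with limma 3.58.1 in R 4.3.3 (empirical Bayes with trend) on log2(signal + 1), after a filter of signal 15.5 or more in at least 3 of 6 libraries. A gene could pass through the 3 libraries of 1 group alone, and a call the other way was then hardly possible. The p-values were adjusted by Benjamini and Hochberg's method over all genes tested, with a threshold of 0.05. The fit was tested on simulated data with independent scatter for each gene. They held none of the GC-linked or shared replicate deviations seen here, so that test does not cover them. Signal per kb used the exon length of GENCODE M1, in which 70 of 72 members had the coordinates of the table.

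The members and gene lists were chosen with earlier results of these data known. Named by rule were all members past the threshold in Dox against No Dox islets, both role lists, the paralog sets, and in the other comparisons the 8 largest differences each way among non-overlapping members whose higher mean was at least 716. Nsf, Stxbp6, Stxbp5l and Stx1a beyond these places, the low-signal members, and Stx12, Stxbp5, Vamp4, Stx17, Vamp1, Stx6, Stx19 and Syt10 were chosen after their values were seen. So were Rab27b, Syt14, Sytl5 and Cplx3 in Macrophages against Endothelial cells, and Cplx3 in Macrophages against Dox islets. Cadps, which is not a member, was named though it fell short of the threshold.

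Same-numbered Macrophages and Endothelial cells libraries deviated together (r = 0.23, 0.41 and 0.36 over 13726 genes). The main fit, with its SE, adjusted p and counts of calls, did not pair them. Only the fit with the replicate number as a block did. The alternatives tried included no filter, a pseudocount of 16, quantile normalization, median ratio rescaling and 1 fit of all 12 libraries. Others took the replicate number as a block, left out each library, or left out the 2 islet libraries that deviated with GC content. Removing each library's trend with GC content was added after seeing the data. Of the members counted here, 2 are not reported by name or plotted.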

Additional observations from a re-analysis of the deposited data

How the results depend on the processing

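Of the 67 members tested in Dox against No Dox islets limma called 4. It called 0 with no filter, 7 in 1 fit of all 12 libraries (3 higher, 4 lower, 1 shared with the 4), 0 without the 2 GC-deviating libraries, 10 with the GC trend removed, and 0 to 4 with 1 library left out. The corresponding counts over all genes were 829, against 97 with no filter, 302 without the GC-deviating libraries and 1598 with the GC trend removed. Syt7, Syt13, Syt14 and Sytl4 each lost the call under some alternative and stayed below 0 in all 14. Same-numbered Dox and No Dox islets did not deviate together (r = -0.25, -0.54 and 0.16). The GC-deviating Dox replicate 1 and No Dox replicate 2 did (r = 0.78). With deviations of that size by GC content, these values cannot decide whether same-numbered islet libraries share animals or a day. The replicate block left 2 calls, Syt13 and Syt14. In the other 3 comparisons the counts of members called stayed within 1.5 times of 40, 48 and 38, at 31 to 43 in Macrophages against Endothelial cells, 40 to 49 in Macrophages against Dox islets and 32 to 48 in Endothelial cells against Dox islets with 1 library left out. With the replicate block they were 38, 48 and 41. Quantile normalization split the last into 9 higher and 29 lower, against 5 and 33.

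Rescaling moved the median of all genes. It was 0.11, -0.10, -0.20 and 0.00 in Dox against No Dox islets, Macrophages against Endothelial cells, Macrophages against Dox islets and Endothelial cells against Dox islets. Quantile normalization gave -0.03, -0.11, 0.10 and 0.28, and median ratio rescaling 0.00, 0.01, -0.13 and -0.06.

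Of the 4, 40, 48 and 38 members past the threshold in these 4 comparisons, 0 changed sign under the alternatives tried, and 4, 14, 10 and 11 lost the call under at least 1. Members short of it did so, and the causes were not tested. In Dox against No Dox islets, quantile normalization gave Stx7 -0.12 and Vamp8 -0.0318, median ratio rescaling Stx7 -0.10, removal of the GC trend Stx7 -0.10, and leaving out the GC-deviating libraries Cplx1 0.58, Stx7 -0.0066 and Syt11 0.12. With 1 library left out, Cplx1 ranged from -0.64 to 0.30, Rab3a from -1.17 to 0.34, Stx7 from -0.43 to 0.43, Syt11 from -0.23 to 0.17, Sytl2 from -0.0221 to 0.84, Sytl3 from -0.91 to 0.35 and Vamp8 from -0.27 to 0.60. In Macrophages against Endothelial cells, Stx3 was 0.0522 under median ratio rescaling, 0.0855 with the GC trend removed and -0.19 to 0.0576 with 1 library left out. In Macrophages against Dox islets, Snap29 was 0.10 under quantile normalization, 0.0207 under median ratio rescaling, 0.43 with the GC trend removed and -0.30 to 0.20 with 1 library left out, and Cplx1 was -0.11 without the GC-deviating libraries and -0.11 to 0.83 with 1 library left out. In Endothelial cells against Dox islets, quantile normalization gave Cplx1 0.52, Rab3a 0.37 and Sytl3 1.34, median ratio rescaling Stxbp3a -0.0558, leaving out the GC-deviating library Rab3a 0.0262, Sytl3 0.39 and Vamp3 -0.20, and removal of the GC trend Snap23 0.0397 and Snap29 0.0038. With 1 library left out, Rab3a ranged from -0.81 to 0.0262, Snap23 from -0.56 to 0.11, Snap29 from -0.42 to 0.0844, Stxbp3a from -0.0455 to 0.0648, Sytl3 from -0.51 to 0.39 and Vamp3 from -0.20 to 0.44. The read depth is unknown, and 3 libraries a group limit the precision.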
